A study of Mus musculus with 6 samples.

Results

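The S100 genes encode a family of small calcium-binding proteins. Members were taken as the rows of the authors' deposited gene table whose symbol begins with S100a or S100b, which gave 6 of its 6467 genes: S100a8, S100a9, S100a13, S100a3, S100a16 and S100a7a. RefSeq lists 16 protein-coding genes with such symbols in the mouse (GRCm38.p6), so 10 of them, among them S100a4, S100a6, S100a10, S100a11 and S100b, are outside the table and have no value here. The table holds the genes with an authors' q-value under 0.05, 37.9% of the 17077 genes that were tested. The members present, 37.5% of the RefSeq list, had therefore already passed a test of the contrast described below, and nothing is read from their number.

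RNA was sequenced from CD8+ T cells sorted out of tumours of MC38, a colon carcinoma line of the mouse, in wild-type C57/B6J mice. The treated group (3 libraries) is labelled αPD-1-IL-15-R, by the series title a PD-1 antibody with IL-15 concealed on it; the control group (3 libraries) had PBS. The treated mice received 30 µg intraperitoneally on day 14 and day 17, and cells were collected 48 hours after the later injection. Age, sex and any pooling of mice are not stated, so a p-value reflects how far these 6 samples scatter, which can be technical. No group had the antibody or the cytokine by itself.

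S100 proteins pair into dimers and change shape when calcium fills their EF-hand loops, which exposes a surface that binds partner proteins. S100A8 and S100A9 join as calprotectin, the main cytosolic protein of neutrophils, which is also made by monocytes. Calprotectin withholds zinc and manganese from microbes and, once released, acts on the receptors TLR4 and RAGE. Several other members work inside the cell or at its membrane.

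The genes of the table held between 8886351 and 9403710 reads in treated libraries and between 8484736 and 9248214 in PBS libraries. The sorted identity was checked on Cd8b1, a chain of the CD8 receptor, at 822, 1024 and 870 TPM in treated libraries 1 to 3 and 315, 892 and 518 TPM in PBS libraries 1 to 3. TPM is a level corrected for gene length and scaled to the same total in each library. Markers of other cell types were present throughout: the 22 genes of a monocyte and macrophage list in the table summed to 3254, 2237 and 2756 TPM in treated libraries, against 4354, 5110 and 5966 TPM in PBS libraries. Most of the treated sum was Ly6c2, which CD8+ T cells also express, at 1768, 1741 and 2223 TPM, against 438, 1295 and 764 TPM in PBS libraries. Of the 22 genes, the 20 lower ones summed to 1438, 442 and 467 TPM in treated libraries, against 3903, 3771 and 5168 TPM in PBS libraries. Treated library 1 stood apart from the other treated libraries in these genes and in fibroblast genes, and values without it are given beside the results it moves most. In bulk RNA, fewer cells of a type and less RNA per cell cannot be told apart.

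S100a8 and S100a9 were both higher and neighbour each other, so their promoters are shown beside that of S100a7a, the adjacent S100 gene, which was lower in the authors' deposited table. Each sequence runs from 250 bases before to 50 bases after the start annotated by RefSeq (GRCm38.p6), on the strand of the gene. S100a8 is at chr3:90668821-90669120 on the plus strand, S100a9 at chr3:90695672-90695971 on the minus strand and S100a7a at chr3:90654052-90654351 on the plus strand. Capitals mark matches to TATAAA (core promoter box), TTNNGNAA (C/EBP) and GAGGAA (PU.1) on either strand; TGANTCA (AP-1) and an NF-kappaB motif were searched too and had no match here.
S100a8: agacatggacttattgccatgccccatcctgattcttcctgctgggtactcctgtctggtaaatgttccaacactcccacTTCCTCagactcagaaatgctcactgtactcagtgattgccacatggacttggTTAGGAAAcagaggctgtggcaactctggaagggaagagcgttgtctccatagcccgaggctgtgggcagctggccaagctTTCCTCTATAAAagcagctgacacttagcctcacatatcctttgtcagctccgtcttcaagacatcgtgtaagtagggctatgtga
S100a9: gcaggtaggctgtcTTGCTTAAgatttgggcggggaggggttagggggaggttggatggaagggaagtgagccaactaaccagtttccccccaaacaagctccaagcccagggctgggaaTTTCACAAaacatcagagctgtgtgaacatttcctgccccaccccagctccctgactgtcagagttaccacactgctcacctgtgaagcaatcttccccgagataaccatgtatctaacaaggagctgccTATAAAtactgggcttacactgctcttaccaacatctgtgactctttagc
S100a7a: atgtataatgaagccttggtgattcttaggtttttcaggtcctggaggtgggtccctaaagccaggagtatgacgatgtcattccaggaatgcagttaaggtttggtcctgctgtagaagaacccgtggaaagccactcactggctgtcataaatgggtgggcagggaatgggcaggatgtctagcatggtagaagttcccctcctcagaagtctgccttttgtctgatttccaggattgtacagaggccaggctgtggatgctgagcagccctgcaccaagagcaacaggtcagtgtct
A TATAAA lies 30 bases before the annotated start of S100a8 and at the annotated start of S100a9, and S100a7a has none. S100a3, which was lower, has 4 annotated promoters. These hold a TATAAA 52 bases before the start in 1 of them, with 2 matches to TTNNGNAA and 2 to GAGGAA over all. The promoter of S100a13, which was higher, holds no match, and those of S100a16, which was lower, match GAGGAA and TGANTCA. Any bearing of the motifs on direction was not tested. Of 32851 mouse promoters of this length, 13.6% hold TATAAA, 40.7% hold TTNNGNAA and 28.3% hold GAGGAA on either strand. S100a8 has 1 match to TTNNGNAA and 2 to GAGGAA, and S100a9 has 2 to TTNNGNAA and none to GAGGAA. No matches overlap, and a match is only a run of letters in the window.

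S100a8, the smaller calprotectin subunit, was higher after αPD-1-IL-15-R, by 2.95-fold in mean normalised reads, although its reads were few. Its counts were 75, 45 and 30 reads in treated libraries 1 to 3, against 14, 23 and 18 reads in PBS libraries 1 to 3. Normalised to the authors' size factors, this is 51.8 ± 21.2 reads in treated libraries and 17.6 ± 4.7 reads in PBS libraries (SD, n = 3 each). The groups did not overlap, treated library 1 was the highest, and treated library 3 lay close to PBS library 2: their 95% exact Poisson intervals, which cover counting error only, ran from 20.2 to 42.8 and from 14.6 to 34.5 reads. The fitted log2 change was 1.56 (SE 0.42), with an adjusted p of 0.059 in edgeR's quasi-likelihood test, just short of the threshold of 0.05. In this fit no gene named here had an edgeR adjusted p under 0.040, a value that many of them share, so it ranks genes little. The authors' deposited table gives a log2 change of 1.56 and a q-value of 0.0061.

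S100a9, the larger calprotectin subunit, followed the same order between groups. It had 132, 58 and 60 reads in treated libraries 1 to 3, against 30, 33 and 40 reads in PBS libraries 1 to 3. Treated library 1 held more than the other treated libraries, and the groups did not overlap. The means were 86.0 ± 38.5 normalised reads in treated libraries and 32.8 ± 5.5 in PBS libraries (SD, n = 3 each), a 2.62-fold difference. The fitted log2 change was 1.39 (SE 0.40), with an edgeR adjusted p of 0.063, and the q-value in the authors' deposited table was 0.0053. Without treated library 1 the log2 changes were 1.21 for S100a8 (edgeR adjusted p = 0.064) and 0.96 for S100a9 (edgeR adjusted p = 0.056).

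Per length, the subunits stood at much the same level. In treated libraries 1 to 3, S100a8 was at 39.9, 25.3 and 16.8 TPM and S100a9 at 36.8, 16.7 and 17.2 TPM. In PBS libraries 1 to 3, S100a8 was at 8.06, 15.03 and 11.85 TPM and S100a9 at 8.86, 11.02 and 13.82 TPM. The ratio of their reads varied more among libraries than between groups: S100a8 reads were 56.8%, 77.6% and 50% of S100a9 reads in treated libraries and 46.7%, 69.7% and 45.0% in PBS libraries. The mean log2 ratio was -0.73 ± 0.33 in treated and -0.92 ± 0.35 in PBS libraries (SD, n = 3 each), a difference of 0.20 that was smaller than the spread (two-sided exact permutation test, p = 0.50; 3 against 3 libraries cannot go below 0.10). Across the 6 libraries, log2 normalised counts of the subunits had a Pearson correlation of 0.94, given as a description since the libraries share the treatment contrast and their depth.

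**Figure D1:**
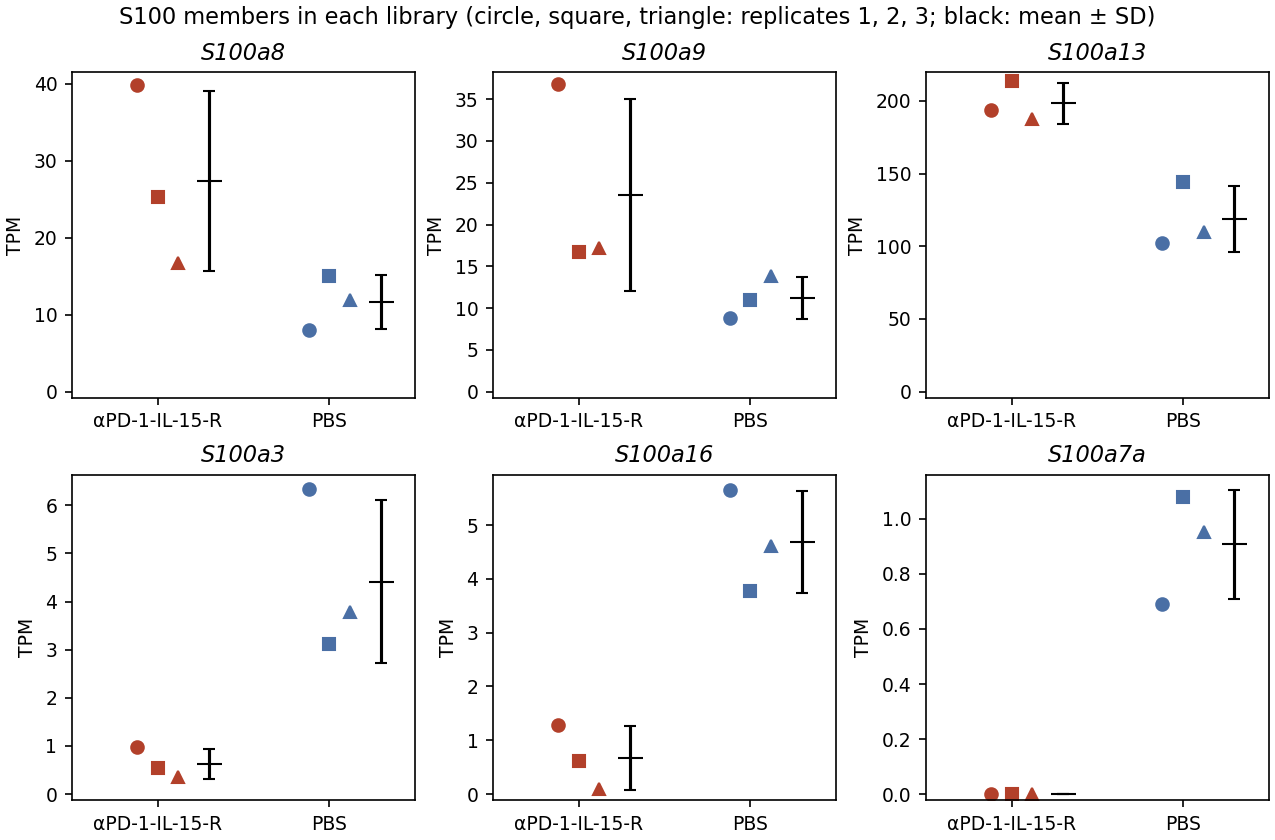
TPM of the 6 S100 members in each library, with αPD-1-IL-15-R left of PBS and a separate linear axis from 0 in each panel; symbols are replicates 1 to 3 and black bars the mean ± SD. S100a8, S100a9 and S100a13 are higher and S100a3, S100a16 and S100a7a lower in the treated libraries, and treated library 1 is the highest for S100a8 and S100a9.

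S100a13, which binds FGF1 and interleukin 1α and takes part in their release without a signal peptide, was by far the most abundant member per length and rose in the treated libraries. It had 1195, 1282 and 1125 reads in treated libraries 1 to 3, against 595, 759 and 551 reads in PBS libraries 1 to 3. The groups were well separated, and the treated libraries lay closer to one another than the PBS libraries did relative to their means. In TPM it averaged 198 ± 13.8 in treated and 119 ± 22.5 in PBS libraries (SD, n = 3 each). The log2 change was 1.06 (SE 0.17), an edgeR adjusted p of 0.040, and 1.10 without treated library 1. S100a13 overlaps S100a1 in RefSeq and it is not stated how reads of an overlap were assigned, so its value is uncertain. Scaled on T cell genes its log2 change turned to -0.43. The authors' deposited table gives S100a13 the smallest q-value of the family, 4.7e-06.

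S100a3, best known from the hair cuticle, fell to few reads. It had 6, 3 and 2 reads in treated libraries 1 to 3, against 35, 15 and 19 reads in PBS libraries 1 to 3. All treated libraries were below the lowest PBS library. The means were 3.8 ± 1.9 normalised reads in treated and 21.7 ± 9.3 in PBS libraries (SD, n = 3 each), and the log2 change was -2.47 (SE 0.53, edgeR adjusted p = 0.044). In RefSeq the gene overlaps S100a2 and the pseudogene Gm23464, so its value is uncertain.

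S100a16, a widely expressed member linked to fat cell formation, pointed the same way. It had 13, 7 and 1 reads in treated libraries 1 to 3, against 63, 38 and 44 reads in PBS libraries 1 to 3. The treated libraries were all below the PBS libraries, with treated library 1 the highest of them. The log2 change was -2.64 (SE 0.69), with an edgeR adjusted p of 0.056, and -3.37 without treated library 1, where it passed (edgeR adjusted p = 0.012).

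S100a7a, a relative of human psoriasin made by inflamed skin, had reads in PBS libraries alone. It had 0 reads in each treated library, against 6, 10 and 8 reads in PBS libraries 1 to 3. A count of 0 was taken to allow at most 3 reads over the treated group, and the PBS reads were taken as exact. On that basis S100a7a was at least 7.3-fold lower in treated libraries. Counting error of the PBS reads and scatter between samples are left out. S100a7a was too low for the count filter, which asks for about 10 reads in 3 libraries, and was not fitted. The log2 change of -5.31 in the authors' deposited table rests on those zeros. S100a3 and S100a16 passed the filter through the PBS libraries, all of which reached 10 reads, against 0 treated libraries for S100a3 and 1 for S100a16, so a gene that passed in this way had to be lower.

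The authors' deposited table has 3 members higher and 3 lower; by its q-values 16.0% of the 17077 genes were higher and 21.9% lower. Of the 5 fitted members, edgeR called S100a13 higher and S100a3 lower, against 37.3% of the 6251 fitted genes called, 16.5% higher and 20.7% lower. Without PBS library 1 or 3 or treated library 2 or 3, edgeR called 0 members and 0 genes, where 4220 to 4885 genes had an unadjusted p under 0.05; without treated library 1 it called 3 members and 4550 genes. All 6 members had groups that did not overlap in normalised reads, as did 99.3% of the table's genes, which were selected for their difference. The calls over the table split into 1033 higher and 1296 lower with the authors' size factors, but 1995 higher and 1182 lower with TMM scaling and 2258 higher and 1686 lower with median-ratio scaling. By level, the order per length in treated libraries was S100a13, then S100a8 and S100a9, which did not differ beyond their spread, then S100a16 at 0.67 ± 0.59 TPM and S100a3 at 0.63 ± 0.31 TPM, which did not either (SD, n = 3 each), then S100a7a, listed at 0. In PBS libraries it was the same, with S100a8 and S100a9 at 11.6 ± 3.5 and 11.2 ± 2.5 TPM, and S100a16 and S100a3 at 4.7 ± 0.9 and 4.4 ± 1.7 TPM (SD, n = 3 each).

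Calprotectin genes were also set against the rest of the family within each library, which needs no scaling. S100a8 and S100a9 together had 17.1%, 8.0% and 8.0% of the reads of the other 4 members in treated libraries 1 to 3, against 6.3%, 6.8% and 9.3% in PBS libraries 1 to 3. Treated library 1 was high, and the other treated libraries lay within the PBS range. The mean log2 ratio was -3.28 ± 0.63 in treated and -3.76 ± 0.30 in PBS libraries (SD, n = 3 each), a difference of 0.48 (two-sided exact permutation test, p = 0.30) that was 0.11 without treated library 1 (p = 0.60 by the same exact test). The reads of the other members were nearly all S100a13. S100a3, S100a7a and S100a16 together summed to 2.3, 1.2 and 0.5 TPM in treated libraries, against 12.7, 8.0 and 9.4 TPM in PBS libraries, the opposite direction to S100a8 and S100a9.

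The choice of scaling set the sign of some members. Scaled on 18 T cell genes such as Cd3d, Lck and Cd8b1, the log2 change was 0.21 for S100a8, -0.04 for S100a9 and -0.43 for S100a13, while S100a3 stood at -4.12 and S100a16 at -4.21. These 18 are the listed T cell genes in the authors' deposited table, all higher there, and the rest of the list has no value here. The factors therefore carry the table's selection, as do those of TMM and median-ratio scaling. Scaling on the T cell genes moved the median over the fitted genes by -1.61, to a log2 change of -2.18. Relative to that median, S100a8 was at 2.39, S100a9 at 2.14, S100a13 at 1.76, S100a3 at -1.94 and S100a16 at -2.03. With the authors' size factors the same differences from the median of all fitted genes were 2.13, 1.96, 1.63, -1.90 and -2.07. Subtracting the median removes most of a shift shared by all genes, so the likeness of these differences was largely fixed in advance. TMM moved the median by 0.28 and median-ratio scaling by 0.43, and with these S100a8 stood at 1.80 and 1.91 (edgeR adjusted p = 0.042 and 0.037) and S100a9 at 1.64 and 1.74 (edgeR adjusted p = 0.040 and 0.036).

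**Figure D2:**
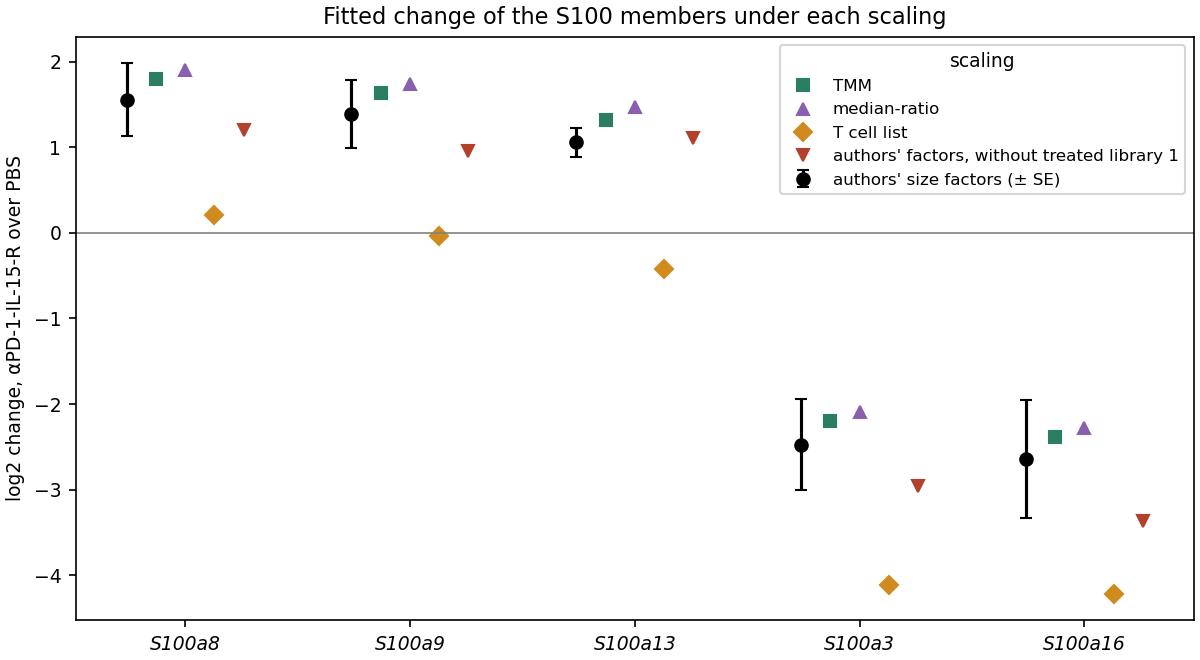
Fitted log2 change, αPD-1-IL-15-R over PBS, of the 5 fitted S100 members (horizontal axis) under each scaling and without treated library 1; bars on the black points are ± SE. S100a3 and S100a16 are below 0 under every setting plotted, whereas scaling on the T cell list puts S100a9 at -0.04 and S100a13 at -0.43.

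All 6 members lie on chromosome 3, where RefSeq places 15 S100a genes. In chromosome order those in the table are S100a13, S100a16, S100a3, S100a7a, S100a8 and S100a9, with S100a7a, S100a8 and S100a9 next to one another. Direction changed along the row, from higher for S100a13, through lower for S100a16, S100a3 and S100a7a, to higher for S100a8 and S100a9. Of the 9 other protein-coding genes within 5 places of the S100a1 to S100a9 block, 3 were in the table and all were lower. Npr1, the receptor of atrial natriuretic peptide, fell by 2.81 on the log2 scale (SE 0.51, edgeR adjusted p = 0.040), while Ints3 stood at -0.48 (edgeR adjusted p = 0.064) and Snapin at -0.32 (edgeR adjusted p = 0.067).

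Neutrophil markers were examined because neutrophils carry most calprotectin. Of 34 listed genes, 8 were in the authors' deposited table, 4 higher and 4 lower, and edgeR called 2 higher and 1 lower, against 37.3% called among all fitted genes, and 7 without treated library 1. Defining markers such as Csf3r, Cxcr2, Retnlg, Camp, Ngp, Ltf, Elane and Mpo are outside the table and have no level here, and none of the 8 was at 0 in any library. The 8 genes summed to between 19.0 and 39.6 TPM in treated libraries and between 36.0 and 52.5 TPM in PBS libraries.

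The 4 higher genes were led by Stfa2l1. Stfa2l1, a stefin A protease inhibitor abundant in mouse neutrophils, had 19.4, 13.2 and 9.2 TPM in treated libraries 1 to 3, against 1.5, 1.7 and 2.9 TPM in PBS libraries 1 to 3, and rose by 3.08 on the log2 scale (SE 0.44, edgeR adjusted p = 0.040). Stefin A genes are near-identical copies, so its own value is uncertain. Asprv1, an aspartic protease of skin and neutrophils, rose to 1.5 ± 0.3 TPM in treated libraries, against 0.46 ± 0.15 TPM in PBS libraries (SD, n = 3 each; log2 change 1.95, SE 0.38, edgeR adjusted p = 0.042). Neither gene reached 10 reads in any PBS library, with 3, 3 and 5 reads for Stfa2l1 and 9, 8 and 4 for Asprv1, so each passed the count filter through the treated libraries and had to be higher. Lcn2, the iron-siderophore binder lipocalin 2, had 5.1, 3.5 and 1.7 TPM in treated libraries 1 to 3, against 0.92, 1.5 and 1.5 TPM in PBS libraries 1 to 3 (log2 change 1.69, SE 0.48, edgeR adjusted p = 0.063). Like S100a8, both Stfa2l1 and Lcn2 were highest in treated library 1 and lowest of the treated in library 3. G0s2, an inhibitor of fat breakdown, stood at 1.45 on the log2 scale (SE 0.38; adjusted p in edgeR 0.054), which turned to -0.18 with scaling on the T cell genes.

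The 4 lower neutrophil genes were Trem1, Mmp9, Cd177 and Padi4. Trem1, an activating receptor of neutrophils and monocytes, fell by 2.42 on the log2 scale (SE 0.34, edgeR adjusted p = 0.040), with 2.7 ± 1.2 TPM in treated and 17.7 ± 5.1 TPM in PBS libraries (SD, n = 3 each). Mmp9, the gelatinase stored in neutrophil granules and also made by macrophages, had 6.1, 1.7 and 1.8 TPM in treated libraries 1 to 3, against 26.6, 13.8 and 20.4 TPM in PBS libraries 1 to 3 (log2 change -2.39, SE 0.58, edgeR adjusted p = 0.051, and -3.19 without treated library 1). Cd177, a surface protein of neutrophils, and Padi4, which citrullinates histones in them, were under 2 TPM in each library and stood at -1.89 and -1.78 (edgeR adjusted p = 0.093 and 0.073). In treated libraries 1 to 3 Cd177 had 10, 4 and 2 reads and Padi4 10, 6 and 3. All PBS libraries reached 10 reads for both, with 11, 26 and 28 for Cd177 and 18, 17 and 37 for Padi4. Both genes thus passed the count filter through the PBS libraries and had to be lower. The 4 higher genes summed to 28.9, 21.3 and 14.9 TPM in treated libraries 1 to 3, against 4.6, 4.4 and 6.2 TPM in PBS libraries 1 to 3, and the 4 lower genes to 10.7, 3.9 and 4.1 TPM against 41.1, 31.6 and 46.3 TPM. The part of these genes in the values of S100a8 and S100a9 was not tested.

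Other marker lists were read the same way. Of 23 monocyte and macrophage genes, 22 were in the authors' deposited table, 2 higher and 20 lower, with a median log2 change of -2.28 among 21 fitted genes against -0.57 over all fitted genes, and edgeR called 13, all lower, against 37.3% of all fitted genes, and 20 without treated library 1. Lyz2, the lysozyme of monocytes, macrophages and neutrophils, had 507, 156 and 155 TPM in treated libraries 1 to 3, against 1514, 1615 and 2092 TPM in PBS libraries 1 to 3. The higher genes were Ly6c2 and Ccr2, which CD8+ T cells also express. All 15 fibroblast genes in the table, of 16 listed, were lower (median -3.26; edgeR called 4, and 15 without treated library 1, where Sparc stood at -4.99 in place of -3.26 and Col3a1 at -5.11 in place of -3.33) and summed to 363, 36.7 and 51.6 TPM in treated libraries, against 2177, 1139 and 1946 TPM in PBS libraries. In PBS libraries this sum was highest in library 1 and lowest in library 2, the order of S100a3 and S100a16 reads but the reverse of that of S100a7a reads. In treated libraries it was highest in library 1, as were S100a3 and S100a16, but lowest in library 2, whereas S100a3 and S100a16 were lowest in library 3. The counts behind these orders were small. S100a3 had 3 and 2 reads in treated libraries 2 and 3, with 95% Poisson intervals of 0.6 to 8.8 and 0.2 to 7.2. The intervals of S100a7a (6, 10 and 8 reads in PBS libraries 1 to 3) overlapped too, so counting error alone could set either order. The part of fibroblasts in the S100 values was not tested. All 18 T cell genes in the table, of 26 listed, were higher (median 1.25; edgeR called 2, and 9 without treated library 1), and summed to between 5873 and 6936 TPM in treated libraries and between 1973 and 5596 TPM in PBS libraries. The remaining lists are set against 37.3% of all fitted genes called (16.5% higher and 20.7% lower). Of 9 fitted dendritic cell genes, edgeR called 1 higher and 7 lower. It called 5 endothelial genes lower of 7 fitted and 9 in the table (8 called without treated library 1). It called 1 B cell gene lower of 2 (2 called without that library) and none of 1 epithelial gene. That gene, Cdh1, had an edgeR unadjusted p under 0.05 and was called by DESeq2, as were 6351 genes of the table. NK cell genes split into 4 higher and 1 lower of 8. Among the lower calls, Cd209a, Clec9a, Kdr, Emcn and Fcrla had under 10 reads in each treated library. Flt3 reached 10 in treated library 3 alone, and the fibroblast genes Cd248 and Mfap5 in treated library 1 alone. These genes passed the count filter through the PBS libraries and had to be lower.

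**Figure D3:**
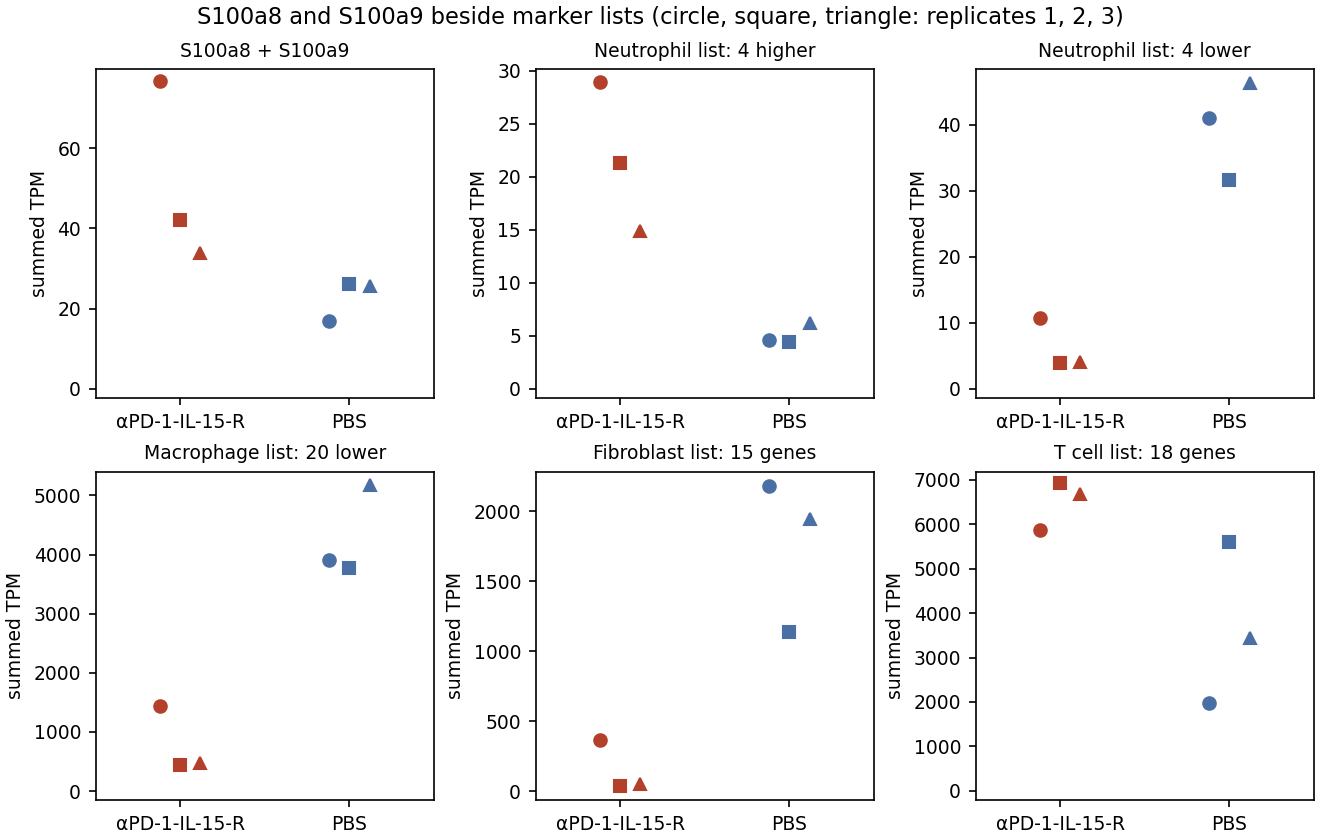
Summed TPM per library of S100a8 and S100a9 and of marker genes in the table, αPD-1-IL-15-R left of PBS, on linear axes from 0; symbols are replicates 1 to 3. The sum of S100a8 and S100a9 (76.7, 42.0 and 33.9 TPM in treated libraries 1 to 3, against 16.9, 26.1 and 25.7 TPM in PBS libraries 1 to 3) is higher in treated libraries, as is that of the 4 neutrophil genes chosen for being higher, whereas the 4 lower neutrophil genes, the 20 lower macrophage genes and the fibroblast genes are lower.

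The genes most like each calprotectin gene were found by Pearson correlation of log2(normalised count + 0.5) over the 6 libraries, among 6211 genes with a mean of at least 10 normalised reads. For S100a8 these were Rpusd2 (r = 0.98), Lcn2 (0.98), Mylip (0.97), Rnf139 (0.97) and Cnr2 (0.97). For S100a9 they were Sec61a1 (r = 0.97), Galnt10 (0.95), Mylip (0.95), Stfa2l1 (0.94) and Nol6 (0.94). Lcn2 and Stfa2l1 are the neutrophil genes described above. The others changed less: Rpusd2 stood at a log2 change of 0.48, Mylip, a ubiquitin ligase of the LDL receptor, at 0.53 and Sec61a1, the pore of the endoplasmic reticulum translocon, at 0.29, with edgeR adjusted p of 0.18, 0.077 and 0.10. With 6 libraries in 2 groups, a high correlation is common, and these values describe the libraries.

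Genes of S100 partners and receptors were mixed. Of 18 listed, 10 were in the authors' deposited table, 3 higher and 7 lower, at a median log2 change of -0.67, against -0.57 over all fitted genes, and edgeR called 2 higher and 3 lower, against 16.5% higher and 20.7% lower of all fitted genes. Cd69, an early activation marker of T cells reported to bind calprotectin, had 153, 169.9 and 219.6 TPM in treated libraries 1 to 3, against 29.6, 77.4 and 59.2 TPM in PBS libraries 1 to 3, and rose by 2.00 on the log2 scale (SE 0.39, edgeR adjusted p = 0.042). Emb, the adhesion protein embigin and a relative of basigin, rose by 1.50 (SE 0.19, edgeR adjusted p = 0.040), to 161 ± 11.3 TPM in treated libraries, against 71.4 ± 17.7 TPM in PBS libraries (SD, n = 3 each). Both were above 0 under every scaling tried, at 0.67 for Cd69 and 0.06 for Emb when scaled on the T cell genes. Bsg, the gene of basigin, had the most TPM of the list, 334 ± 39.9 in treated and 603 ± 88.8 in PBS libraries (SD, n = 3 each). Its log2 change was -0.54 (SE 0.16, edgeR adjusted p = 0.070), and -0.13 with median-ratio scaling.

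The calprotectin receptor Tlr4 and its co-receptor were among the lower partners in the authors' deposited table, and the adaptor Myd88 among the higher. Tlr4 had 1.9, 0.35 and 0.46 TPM in treated libraries 1 to 3, against 5.1, 3.7 and 5.7 TPM in PBS libraries 1 to 3 (log2 change -2.15, SE 0.67, edgeR adjusted p = 0.075, and -3.24 without treated library 1). Its co-receptor Ly96 stood at -0.87 (edgeR adjusted p = 0.14), and Myd88, the adaptor downstream, at 0.37 (edgeR adjusted p = 0.083), turning to -1.14 with T cell scaling. Nlrp3, the inflammasome sensor, fell by 1.94 (SE 0.34, edgeR adjusted p = 0.040) and stood at -3.39 with T cell scaling. Trp53 and Ahnak, whose proteins bind S100B or the S100A10 complex, fell by 0.77 (SE 0.16, edgeR adjusted p = 0.044) and 0.56 (SE 0.13, edgeR adjusted p = 0.048). The median over all fitted genes was -0.57, so Ahnak lay near it. With median-ratio scaling Trp53 stood at -0.35 and Ahnak at -0.13, against a median of -0.15. Ager, the gene of RAGE, is outside the table.

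Annexins, membrane-binding proteins that several S100 dimers bridge, gave few calls. Of 12 listed, 7 were in the authors' deposited table, 2 higher and 5 lower, at a median log2 change of -1.25 against -0.57 over all fitted genes, and edgeR called 1 of the 7, against 37.3% of all fitted genes, and 6 without treated library 1. The called gene, Anxa4, fell by 1.25 (SE 0.28, edgeR adjusted p = 0.046). Anxa1, a partner of S100A11, had 203, 73.1 and 76.4 TPM in treated libraries 1 to 3, against 610, 330 and 505 TPM in PBS libraries 1 to 3 (log2 change -1.75, SE 0.47, edgeR adjusted p = 0.059, and -2.35 without treated library 1). Anxa6 (log2 1.20, SE 0.33, edgeR adjusted p = 0.062) had 537 ± 17.6 TPM in treated and 291 ± 131 TPM in PBS libraries (SD, n = 3 each), and with Anxa11 turned negative when scaled on the T cell genes. Anxa2, the partner of S100A10, is outside the table.

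The phagocyte NADPH oxidase, to which calprotectin carries arachidonic acid in neutrophils, split by subunit. Of 7 listed genes, 6 were in the authors' deposited table, 4 higher and 2 lower, and edgeR called 1, which was lower, against 37.3% of all fitted genes called, and 4 without treated library 1. Ncf1, the cytosolic subunit p47phox, fell by 1.05 on the log2 scale (SE 0.18, edgeR adjusted p = 0.040). Cybb, the catalytic subunit of phagocytes, had 8.3, 1.7 and 2.0 TPM in treated libraries 1 to 3, against 15.2, 20.9 and 25.7 TPM in PBS libraries 1 to 3 (log2 change -2.07, SE 0.64, edgeR adjusted p = 0.073, and -3.09 without treated library 1). Rac2, Ncf4, Cyba and Cybc1 were between 0.40 and 1.20 with the authors' size factors and between -1.12 and -0.13 with T cell scaling. Of 24 other EF-hand and calcium-sensor genes, 13 were in the table, 6 higher and 7 lower, with edgeR calling 3 higher and 2 lower of 12 fitted, a share near the 37.3% of all fitted genes. Efhd2, which rose by 0.63 (SE 0.11, edgeR adjusted p = 0.040), turned to -0.89 with T cell scaling, and Aif1, the macrophage protein Iba1, fell by 2.07 (SE 0.38, edgeR adjusted p = 0.041).

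**Figure D4:**
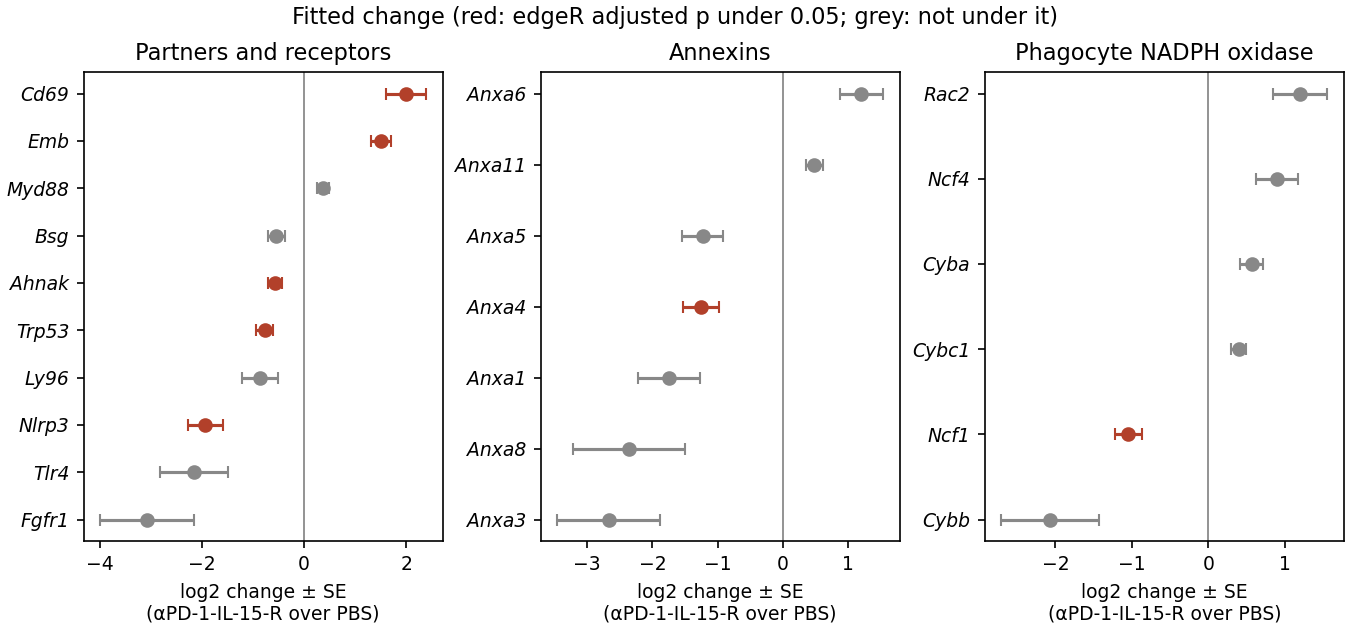
Log2 change ± SE, αPD-1-IL-15-R over PBS, of the genes in the table among S100 partners and receptors, annexins and phagocyte NADPH oxidase subunits; red marks an edgeR adjusted p under 0.05. Cd69 at 2.00 and Emb at 1.50 are the called genes above 0, and 5 of 7 annexins and the phagocyte subunits Cybb and Ncf1 lie below it.

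The pathway column of the deposited table assigns S100a8 and S100a9, of the 6 members, to IL-17 signalling, a pathway by which tissue cells call in neutrophils; this group was looked up after values were known. It has 39 genes in the table, 13 higher and 26 lower, at a median log2 change of -0.69 against -0.57 over all fitted genes, and edgeR called 4 higher and 8 lower of 38 fitted, against 37.3% of all fitted genes, so the group was near the background. S100a8, S100a9, Lcn2, Csf2 and Tnf had the largest positive log2 changes, of which Csf2, the gene of GM-CSF, rose by 1.58 (SE 0.22, edgeR adjusted p = 0.040). Of neutrophil-attracting chemokine genes, Cxcl1 had 20.7, 3.1 and 3.7 TPM in treated libraries 1 to 3, against 131, 63.4 and 122 TPM in PBS libraries 1 to 3 (log2 change -3.25, SE 0.83, edgeR adjusted p = 0.054), and Cxcl2 fell by 1.73 (SE 0.41, edgeR adjusted p = 0.049). Cebpb, whose protein binds C/EBP motifs, fell by 1.55 (SE 0.22, edgeR adjusted p = 0.040).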

How the data were processed

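RNA of sorted CD8+ T cells was sequenced in 6 libraries, 3 per treatment label. HISAT2 and RSEM are named in the submitters' processing notes, with no role, and no source used here gives the genome build. The authors deposited estimated counts per gene, unscaled, with FPKM, TPM and log10(TPM + 1) columns per the file headers, and their own log2 fold change, p-value and q-value; no source used here names their test. FPKM and log10 values were not used. The largest deposited q-value is 0.0499, and Benjamini-Hochberg on 17077 genes gave back 100% of q-values from the deposited p-values, within 1e-06.

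The authors' size factors were recovered from the deposited log2 changes of 3105 genes with over 200 reads in each library. Rounded counts, after edgeR's filterByExpr, went into its two-sided robust quasi-likelihood test (edgeR 4.0.16, R 4.3.3) with no covariate, adjusted for the same 17077 genes. Calls describe genes already picked on these libraries. DESeq2 1.42.0 and limma 3.58.1 were alternatives. Ratios of members were compared by exact permutation. A gene of the oxidase list is not reported here. Members and lists were chosen with earlier results of these data known. Named genes were all members, the list genes with the most TPM or the largest called changes, and the 5 most alike to each calprotectin gene; other values in the neutrophil, partner, annexin and oxidase lists and in the IL-17 group were chosen after values were seen.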

Additional observations from a re-analysis of the deposited data

How the results depend on the processing

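With edgeR, 2329 genes and 2 S100 members were called. Median-ratio scaling gave 3944 genes and 5 members, TMM 4 members, DESeq2 6351 genes and 6 members, and limma-voom 4738 genes. Limma on log2(TPM + 1) gave 4109 genes and 4 members, on log2(TPM + 0.1) 4060 genes and 4 members. Adjustment over the table alone gave 6114 genes and 5 members. DESeq2 used the authors' size factors and came close to the deposited q-values. Its adjusted p was 0.0062 for S100a8 and 3.7e-06 for S100a13, beside deposited q-values of 0.0061 and 4.7e-06. Since those q-values picked the table, the DESeq2 counts were largely fixed in advance. Scaling on the T cell list called 0 genes and 0 members by edgeR (4484 genes and 3 members at an unadjusted p under 0.05), and there S100a13 and S100a9 turned to -0.43 and -0.041. Leaving out 1 library gave 0 to 4550 genes and 0 to 3 members; edgeR called 0 without PBS library 1 or 3 or treated library 2 or 3, where 4220 to 4885 genes had an unadjusted p under 0.05, and 4550 without treated library 1. The cause was not tested. Without treated library 3, the 5 fitted members shared an edgeR adjusted p of 0.16. Where 0 genes were called over the whole table, 0 members called says little about the members. Over the omissions of 1 library the log2 change ran from 1.21 to 1.81 for S100a8 (edgeR adjusted p 0.064 to 0.20). For S100a9 it ran from 0.96 to 1.57 (edgeR adjusted p 0.056 to 0.18). Same-numbered libraries had deviations correlating at 0.60, 0.60 and -0.24, so the numbers were not read as pairs; a replicate block gave 4330 genes and 2 members. The ratio of calprotectin to other members kept its sign in all 9 alternatives, between 0.11 and 0.66; with so few libraries its exact test could not pass the threshold. S100a8, S100a9, S100a3, S100a16 and S100a7a have 0 to 132 reads per library, which limits their precision.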
